A study of Sus scrofa with 6 samples.

Results

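The genes described here are 8 transcription factor genes that mark the layers and the projection neurons of the cerebral cortex, CUX1, CUX2, RORB, FEZF2, BCL11B, TBR1, NEUROD2 and NEUROD6. They were taken by name from a table of 21280 protein-coding genes, whose Ensembl identifiers were matched to symbols, and all 8 were found. Total RNA depleted of ribosomal RNA was sequenced from 3 wild boars (libraries labelled brain) and 3 Rongchang pigs, a Chinese domestic breed (libraries labelled cerebrum and re-analysed from an earlier deposit). Every animal was labelled female and 2 years old, and the series title places the tissue in the prefrontal cortex. The breed, the tissue label and the origin of the library separate the same 3 libraries from the other 3, so their effects cannot be told apart.

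The mammalian neocortex is built of layers whose excitatory neurons send axons to different targets. CUX1 and CUX2, homeodomain proteins, mark upper-layer neurons that connect cortical areas, and RORB, an orphan nuclear receptor, marks the input layer, layer 4. FEZF2, a zinc finger protein, and BCL11B, also called CTIP2, specify deep-layer neurons that project out of the cortex, and TBR1, a T-box protein, marks deep-layer neurons that project to the thalamus. NEUROD2 and NEUROD6 are related basic helix-loop-helix factors of glutamatergic projection neurons across the layers. Several of these genes are also used elsewhere, BCL11B in striatal projection neurons and RORB in thalamic neurons. In bulk tissue, fewer cells of a type and less RNA per cell cannot be told apart.

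Levels are given as TPM, a unit of transcript abundance scaled for gene length and library size that allows levels of different genes to be compared. The deposited TPM of protein-coding genes summed to between 17.2% and 40.9% of 1000000 per library. Each level is therefore also given after median-ratio rescaling, which divides a library by the median ratio of its tested genes to their geometric mean. The log2 factors ran from -0.79 in wild boar 2 to 0.52 in domestic pig 2. The median log2 difference of all tested genes, wild boar minus domestic pig, was -0.41 before and 0.01 after rescaling. Domestic pig 3 stood apart in striatal markers, with PPP1R1B, a dopamine signalling protein of striatal neurons, at 41.3 TPM against 5.23 to 7.43 in the other 5 libraries.

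All 8 factors were detected in all 6 libraries and passed the filter of at least 1 TPM in at least 3 libraries. RORB was the most abundant, with a mean of 14.1 TPM over the libraries, and ranked highest of the 8 in 5 libraries and next to NEUROD6 in domestic pig 1. Below it by mean level came NEUROD6 at 10.7, CUX1 at 7.84, CUX2 at 6.70, TBR1 at 5.91 and NEUROD2 at 5.90 TPM. FEZF2, at 2.56 TPM, ranked seventh and BCL11B, at 1.41 TPM, lowest in each of the 6 libraries. RORB exceeded between 76.0% and 83.7% of the genes above 0 in a library, FEZF2 between 47.7% and 50.7%, and BCL11B between 30.9% and 43.4%. Of the 28 pairs of factors, 22 stood in the same order of level in all 6 libraries. The order was not fixed for CUX1 with CUX2 and NEUROD6, for TBR1 with CUX2 and NEUROD2, for CUX2 with NEUROD2, or for RORB with NEUROD6. CUX2 and NEUROD2 exchanged places between the breeds, as described below.

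**Figure D1:**
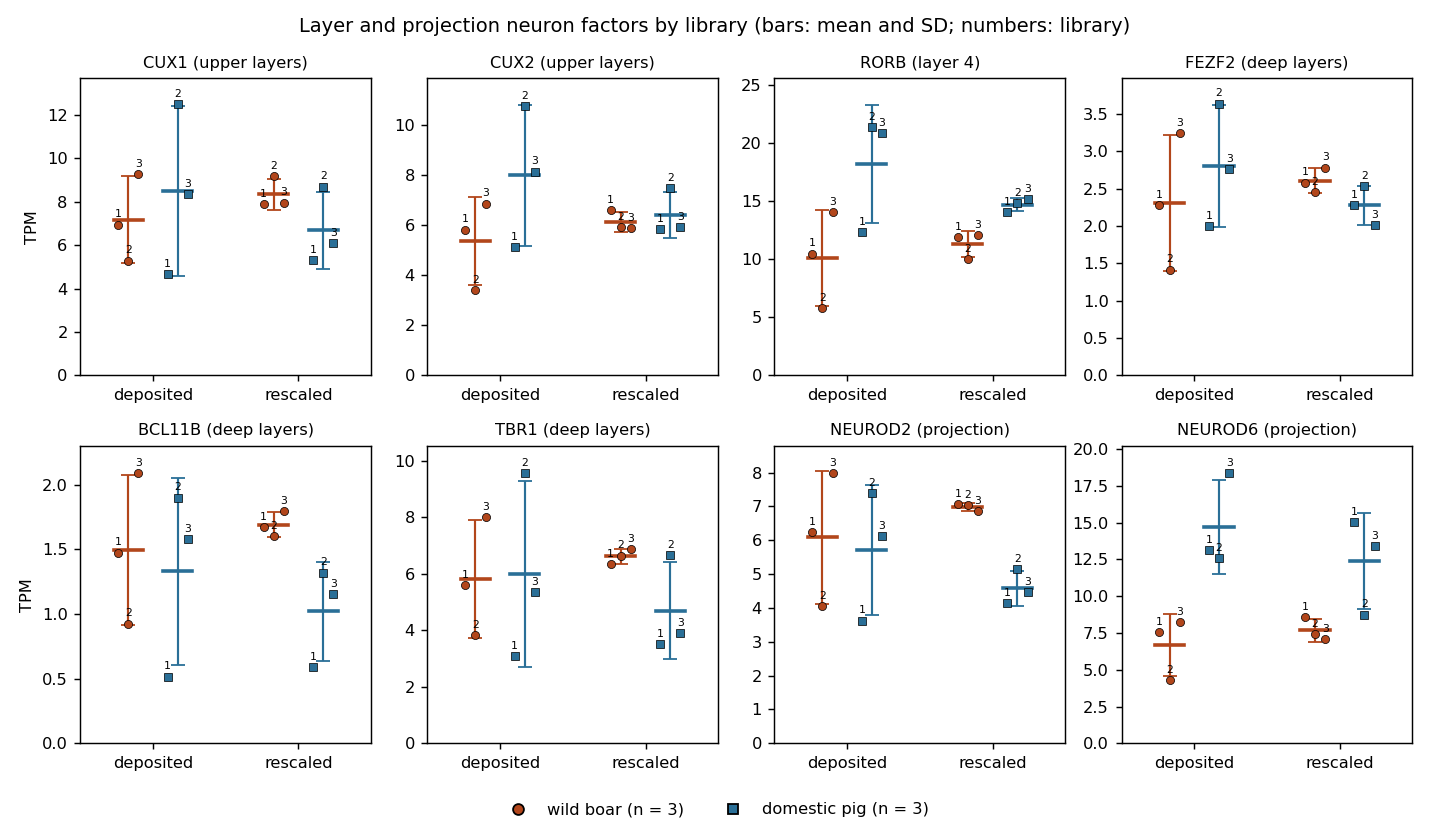
Level of each factor in TPM on deposited and on median-ratio rescaled values; points are libraries with their number, the thick line is the group mean and the bar its SD. After rescaling, the 3 wild boar libraries lie above the 3 domestic pig libraries for NEUROD2 and BCL11B and below them for RORB and NEUROD6.

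The comparison of wild boar with domestic pig asks whether these factors differ between the breeds. On deposited TPM 0 of the 8 factors passed limma's test at an adjusted p of 0.05, where 1.6% of the 11752 tested genes passed, 0.136% as higher and 1.46% as lower in wild boar. Of the 8, RORB and NEUROD6 had an unadjusted limma p under 0.05, as did 2091 (17.8%) of all tested genes. After rescaling 1 of the 8 passed, NEUROD2, which was higher in wild boar, where 19.5% of all tested genes passed, 8.88% as higher and 10.7% as lower. Members that passed were thus not more frequent than among all genes on either scaling. After rescaling 5 of the 8 factors had an unadjusted limma p under 0.05, against 4328 (36.8%) of all tested genes. The factors went both ways: 5 lay above and 3 below 0 after rescaling, with a median of 0.22 against 0.01 for all tested genes, and 3 lay above and 5 below 0 on deposited TPM, with a median of -0.19 against -0.41.

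Among the upper-layer factors, CUX1 was at 6.95, 5.29 and 9.28 TPM in wild boar 1 to 3 and at 4.66, 12.5 and 8.34 TPM in domestic pig 1 to 3. The groups overlapped, and domestic pig holds both the lowest and the highest library. Rescaled, CUX1 was at 8.34 ± 0.724 TPM in wild boar and 6.70 ± 1.78 TPM in domestic pig (SD, n = 3 each). Its log2 difference was -0.16 (SE 0.40) on deposited and 0.30 (SE 0.16, limma adjusted p = 0.215) on rescaled TPM, so its direction depended on the scaling.

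CUX2 was at 5.83, 3.42 and 6.88 TPM in wild boar and at 5.13, 10.8 and 8.15 TPM in domestic pig. The groups overlapped here too. After rescaling the 6 libraries lay between 5.86 and 7.49 TPM, a narrow range in which domestic pig 2 was highest. The log2 difference was -0.49 (SE 0.40) on deposited and -0.05 (SE 0.12, limma adjusted p = 0.798) on rescaled TPM. Of the 8 factors, CUX2 had the smallest rescaled difference.

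RORB, the layer 4 factor, was at 10.5, 5.78 and 14.0 TPM in wild boar and at 12.3, 21.4 and 20.8 TPM in domestic pig. The groups overlapped on deposited TPM through wild boar 3 and domestic pig 1. Rescaled, it was at 11.9, 10.02 and 12.1 TPM in wild boar and at 14.1, 14.8 and 15.2 TPM in domestic pig, without overlap. The log2 difference was -0.82 (SE 0.41, limma adjusted p = 0.275) on deposited TPM. After rescaling it was -0.35 (SE 0.11), and its limma adjusted p of 0.0527 missed the threshold narrowly. With scaling factors taken from genes at 1 TPM or more in all 6 libraries, a setting added after the data were seen, RORB passed at -0.36 (limma adjusted p = 0.0492). Without any 1 library its rescaled difference stayed between -0.40 and -0.28 and did not pass.

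Among the deep-layer factors, FEZF2 was at 2.28, 1.42 and 3.24 TPM in wild boar and at 2.00, 3.64 and 2.76 TPM in domestic pig, with overlap. Rescaled, it was at 2.61 ± 0.164 TPM in wild boar and 2.28 ± 0.258 TPM in domestic pig (SD, n = 3 each). The log2 difference changed sign with the scaling, from -0.21 (SE 0.33) on deposited to 0.14 (SE 0.11, limma adjusted p = 0.382) on rescaled TPM.

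BCL11B was at 1.47, 0.925 and 2.09 TPM in wild boar and at 0.515, 1.90 and 1.58 TPM in domestic pig. Its lowest library was domestic pig 1, at less than any other. Rescaled, the wild boar libraries were at 1.67, 1.60 and 1.79 TPM and the domestic pig libraries at 0.588, 1.32 and 1.15 TPM, without overlap. The log2 difference was 0.13 (SE 0.27) on deposited and 0.43 (SE 0.15, limma adjusted p = 0.0748) on rescaled TPM, and neither passed. With 1 library left out the rescaled difference ran from 0.27 (without domestic pig 1, limma adjusted p = 0.181) to 0.52 (without domestic pig 2, limma adjusted p = 0.0434), and it passed in that last case alone. The striatal list, whose neurons also use BCL11B, was higher in domestic pig: its 12 genes in the table summed to 70.2 to 79.0 rescaled TPM in wild boar and to 92.3 to 178 in domestic pig. That separation rested on ARPP21, which cortical projection neurons also express, and on domestic pig 3. Without ARPP21, an omission made after the values were seen, the sums were 42.8, 40.7 and 43.5 in wild boar, against 42.2, 45.2 and 115 in domestic pig, so the groups overlapped. DRD2 and ISL1, defining markers of striatal neurons, were at 0.513 TPM or less in every library, with both highest in domestic pig 3. DRD1, the other dopamine receptor gene of the list, was at 10.5 TPM there and at 1.37 to 4.70 TPM elsewhere. The part of striatal tissue in the level of BCL11B was not tested.

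TBR1 was at 5.59, 3.83 and 8.01 TPM in wild boar and at 3.08, 9.57 and 5.36 TPM in domestic pig, with overlap. Rescaled, the wild boar libraries were close together at 6.34, 6.64 and 6.88 TPM, while domestic pig was at 3.51, 6.66 and 3.91 TPM, so that domestic pig 2 lay among the wild boars. The log2 difference was 0.02 (SE 0.39) on deposited and 0.46 (SE 0.19, limma adjusted p = 0.113) on rescaled TPM. With 1 library left out the rescaled difference ran from 0.32 (without domestic pig 1, limma adjusted p = 0.297) to 0.68 (without domestic pig 2, limma adjusted p = 0.00869), and it passed in that last case alone. CUX1 likewise ran from 0.17 (without domestic pig 1, limma adjusted p = 0.511) to 0.47 (without domestic pig 2, limma adjusted p = 0.0314), where alone it passed.

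Of the projection neuron factors, NEUROD2 was higher in wild boar after rescaling, while NEUROD6 lay on the other side of 0 and did not pass. NEUROD2 was at 6.23, 4.06 and 7.98 TPM in wild boar and at 3.63, 7.40 and 6.12 TPM in domestic pig, with overlap. Rescaled, it was at 7.07, 7.04 and 6.86 TPM in wild boar and at 4.14, 5.15 and 4.47 TPM in domestic pig, without overlap. Its log2 difference was 0.08 (SE 0.39) on deposited TPM and 0.52 (SE 0.11, limma adjusted p = 0.0166) on rescaled TPM. The rescaled call was lost without wild boar 1, 2 or 3 (limma adjusted p = 0.0526, 0.0567 and 0.0527) or domestic pig 1 (0.0577), at differences of 0.47 to 0.53. It was also lost when the protein-coding sum was set to 1000000 (0.56, limma adjusted p = 0.0599).

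NEUROD6 was at 7.55, 4.28 and 8.22 TPM in wild boar and at 13.2, 12.6 and 18.3 TPM in domestic pig. It was the 1 factor whose groups did not overlap on deposited TPM, where 17.5% of all tested genes did not, 17.1% as lower in wild boar. Rescaled, it was at 8.56, 7.43 and 7.06 TPM in wild boar and at 15.0, 8.75 and 13.4 TPM in domestic pig, with domestic pig 2 just above wild boar 1. The log2 difference was -1.05 (SE 0.41, limma adjusted p = 0.171) on deposited and -0.60 (SE 0.18, limma adjusted p = 0.0507) on rescaled TPM, so it missed the threshold on both. With factors from genes at 1 TPM or more in all libraries it passed (-0.60, limma adjusted p = 0.0468), and with 1 library left out the rescaled value ran from -0.81 (without domestic pig 2, limma adjusted p = 0.00819) to -0.45 (without domestic pig 1, limma adjusted p = 0.147). After rescaling 4 of the 8 factors did not overlap between the breeds, RORB, BCL11B, NEUROD2 and NEUROD6, and 41.7% of all tested genes did not, 19.6% as higher and 22.1% as lower in wild boar.

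**Figure D2:**
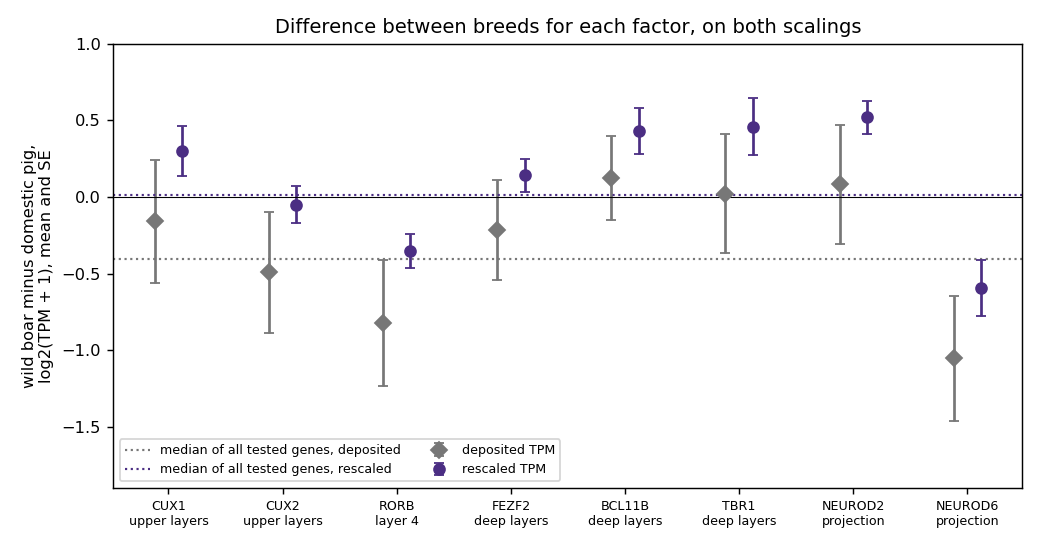
Log2 difference of wild boar minus domestic pig for each factor (points, with SE) on deposited and rescaled TPM; the dotted lines are the medians of all tested genes. RORB and NEUROD6 lie farthest below 0 on both scalings; CUX1 and FEZF2 change sign with the scaling.

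A ratio of 2 genes within a library does not depend on how libraries are scaled, and so the balance of the factors was read from such ratios. RORB was at 1.68, 1.42 and 1.76 times the level of NEUROD2 in wild boar 1 to 3 and at 3.40, 2.88 and 3.40 times in domestic pig 1 to 3. The lowest domestic pig ratio was above the highest wild boar ratio, and the log2 difference was -0.99. CUX2 was at 0.936, 0.843 and 0.861 times NEUROD2 in wild boar and at 1.42, 1.45 and 1.33 times in domestic pig, so the 2 genes stood in opposite order in the breeds. NEUROD2 was at 0.826, 0.948 and 0.971 times NEUROD6 in wild boar and at 0.276, 0.588 and 0.334 times in domestic pig. The pair was thus nearly even in each wild boar, and NEUROD6 was the higher in each library.

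Against the deep-layer factors, RORB was lower in wild boar in all 3 pairs. It stood at 7.11, 6.25 and 6.73 times BCL11B in wild boar and at 23.9, 11.2 and 13.2 times in domestic pig. It stood at 4.60, 4.08 and 4.34 times FEZF2 in wild boar and at 6.15, 5.87 and 7.54 times in domestic pig. TBR1 was at 0.533, 0.663 and 0.570 times RORB in wild boar and at 0.250, 0.448 and 0.258 times in domestic pig. None of these 3 pairs overlapped between the breeds.

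The upper-layer factors gave a split picture. CUX2 did not overlap between the breeds in any of its 3 pairs with deep-layer factors, at 3.95, 3.70 and 3.29 times BCL11B in wild boar and 9.96, 5.67 and 5.17 times in domestic pig. For CUX2 with FEZF2 the groups practically tied, at 2.562 times in wild boar 1 and 2.564 times in domestic pig 1. CUX1 overlapped in all 3 of its pairs. CUX1 was at 1.19, 1.55 and 1.35 times CUX2 in wild boar and at 0.908, 1.16 and 1.02 times in domestic pig, so the 2 relatives were also shifted against each other. As the mean log2 level of CUX1 and CUX2 minus that of TBR1, FEZF2 and BCL11B, the balance was 1.26, 1.31 and 1.08 in wild boar and at 1.73, 1.52 and 1.53 in domestic pig. Its mean difference was -0.38, and the difference of RORB minus the same deep-layer mean was -0.90, each without overlap.

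Within the deep-layer set, FEZF2 was at 1.54, 1.53 and 1.55 times BCL11B in wild boar, an almost constant ratio, and at 3.88, 1.92 and 1.75 times in domestic pig. The domestic pig spread came mostly from domestic pig 1, where BCL11B was lowest. Of all 28 pairs, 15 did not overlap (53.6%), beside 39.6% of the pairs that all tested genes form. The pairs share genes and are not independent. RORB, CUX2 and FEZF2 each took part in 5 of the 15, and TBR1 and CUX1 in 2 each. An exact permutation test of 3 against 3 libraries cannot go below p = 0.1, and none was run on these ratios.

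**Figure D3:**
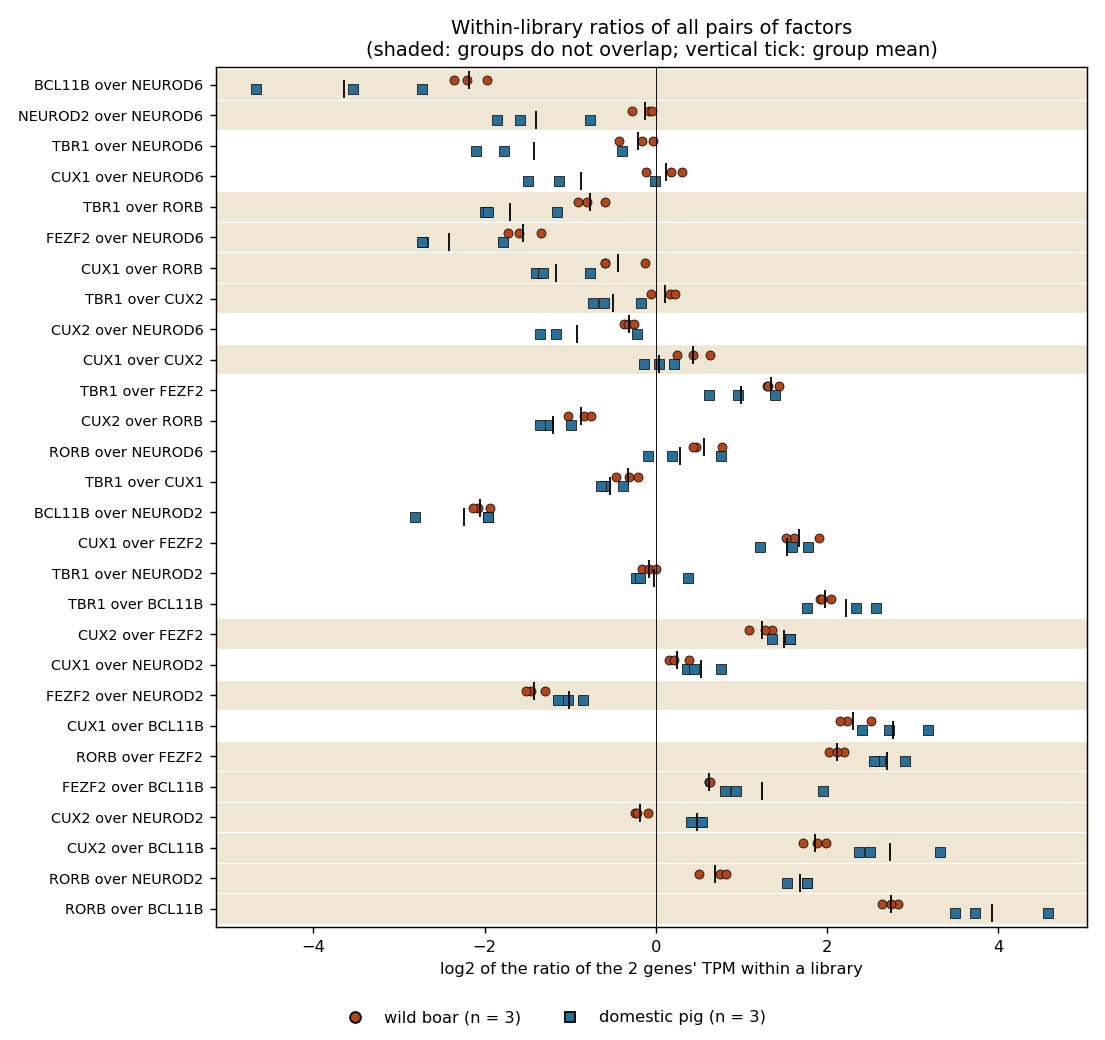
Log2 ratio of the TPM of 2 factors within each library for all 28 pairs, ordered by the difference between the breeds; points are libraries, ticks are group means, and shading marks the 15 pairs whose groups do not overlap. RORB over BCL11B has the lowest difference (-1.19) and BCL11B over NEUROD6 the highest (1.47).

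The levels were also set against the summed TPM of 12 pan-neuronal genes such as SNAP25, SYT1 and MAP2, which likewise does not depend on the scaling. RORB was at 4.51, 4.43 and 4.60 TPM per 1000 pan-neuronal TPM in wild boar and at 5.95, 7.11 and 5.89 in domestic pig. NEUROD6 was at 3.25, 3.28 and 2.69 in wild boar and at 6.35, 4.19 and 5.19 in domestic pig. NEUROD2 was at 2.68, 3.11 and 2.62 in wild boar and at 1.75, 2.47 and 1.73 in domestic pig. BCL11B was at 0.635, 0.709 and 0.684 against 0.249, 0.632 and 0.446, where wild boar 1 and domestic pig 2 nearly touched. These 4 factors did not overlap and the other 4 did, beside 35.4% of all tested genes that did not overlap. Of the 12 pan-neuronal genes 2 passed after rescaling, both higher in wild boar, beside 8.88% of all tested genes passing as higher. They were TUBB3, a neuronal tubulin, by 0.80 (limma adjusted p = 0.00617), and UCHL1, by 0.53 (limma adjusted p = 0.0499). ELAVL4, MAP2, SYT1 and STMN2 lay below 0, at -0.33, -0.36, -0.09 and -0.08, none passing, and the others above 0. The list's median was 0.10. On deposited TPM 0 passed, and 1 had an unadjusted p under 0.05 in limma.

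Other genes of the same layers were taken from lists that hold the factors themselves; each list's count can be read against the 8.88% of all tested genes that passed as higher and the 10.7% that passed as lower after rescaling. Of 15 tested upper-layer genes, 1 passed after rescaling, CALB1, a calcium-binding protein, which was at 2.32, 1.08 and 2.18 TPM in wild boar and at 4.73, 5.09 and 5.92 TPM in domestic pig. Its rescaled log2 difference was -0.79 (limma adjusted p = 0.0146). CDH4, HPCAL1 and WFS1, the next by p, were at 0.42, 0.53 and 0.65 and did not pass. The list's median was -0.02, close to that of all tested genes. Its 17 genes in the table summed to 127 to 138 rescaled TPM in wild boar and to 129 to 137 in domestic pig, with overlap. LAMP5, a vesicle membrane protein, was at -0.02 and did not pass.

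Of 5 tested layer 4 genes, IL1RAPL2, a synaptic receptor-like protein, passed after rescaling and was lower in wild boar, by -0.36 (limma adjusted p = 0.0415). It was at 1.02, 0.681 and 1.25 TPM in wild boar and at 1.61, 2.62 and 2.16 TPM in domestic pig. RORB, GRIK1, a kainate receptor subunit, and CNTN6, an adhesion protein, were at -0.35, -0.45 and -0.27, not passing, each without overlap. KCNH5, the remaining tested gene, was at -0.23, with overlap and not passing. The list's median of -0.35 was RORB's own value, so it adds nothing to RORB, and that of all tested genes was 0.01. The summed level of its 8 genes in the table, RORB included, was 22.6 to 27.4 rescaled TPM in wild boar and 32.5 to 33.3 in domestic pig. RORB alone was at 10.02 to 12.1 rescaled TPM in wild boar and at 14.1 to 15.2 in domestic pig, a large part of these sums.

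Of 22 tested deep-layer genes, 2 passed as higher and 1 as lower after rescaling. CRIM1, a membrane protein of corticospinal neurons, was higher by 0.78 (limma adjusted p = 0.00802) and CCN2, a matricellular protein of the deepest layer, by 1.201 (limma adjusted p = 0.0149). CCN2 was at 13.8, 6.02 and 14.3 TPM in wild boar and at 2.74, 10.3 and 7.07 TPM in domestic pig. ETV1, an ETS factor of deep-layer neurons, was lower by -0.56 (limma adjusted p = 0.0165), and FOXP2 was at -0.40 without passing. The deep-layer list's median was 0.11. Its 24 genes in the table summed to 251 to 272 rescaled TPM in wild boar and to 229 to 330 in domestic pig, with overlap. CRIM1 and CCN2 are also made by vessel cells, of whose markers some were higher in wild boar. The 11 mural and fibroblast markers summed to 81.7 to 110 rescaled TPM in wild boar and to 68.3 to 80.4 in domestic pig, with 2 of 11 passing as higher, TAGLN and ACTA2; 10 of the 11 lay above 0 and RGS5, at -0.43, below. The 6 endothelial markers summed to 26.3 to 37.8 and 18.7 to 21.7, with 1 of 6 passing, CLDN5; FLT1 was at 0.01 and TEK at -0.36, the latter without overlap and not passing. Their part in the levels of CRIM1 and CCN2 was not tested.

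Of 19 tested genes of cortical projection neurons, 5 passed as higher and 1 as lower after rescaling (8.88% and 10.7% of all tested genes), with a list median of 0.18. BAIAP2 and LINGO1, a postsynaptic scaffold and a membrane protein, were higher by 0.70 and 0.50 (limma adjusted p = 0.0144 and 0.0163), beside NEUROD2, the vesicular glutamate transporter gene SLC17A7 and the kinase gene CAMK2A. ARPP21, an RNA-binding phosphoprotein of cortical and striatal neurons, was lower by -0.81 (limma adjusted p = 0.011), at 31.9, 17.002 and 33.6 TPM in wild boar and 50.7, 67.8 and 86.7 TPM in domestic pig. EMX1, a homeodomain factor of the cortical lineage, was at 0.39 and did not pass. NEUROD1, the third NEUROD gene of the list, was not tested, with levels between 0.382 and 2.75 TPM. It was highest in domestic pig 2.

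NEUROD proteins bind DNA as dimers with E proteins, and ID proteins block such dimers. Of the 9 tested genes of that list 2 passed after rescaling, both E proteins and both lower in wild boar. TCF4 was at 24.4, 18.6 and 30.8 TPM in wild boar and at 36.7, 65.0 and 58.9 TPM in domestic pig (rescaled -0.58, limma adjusted p = 0.0145). TCF12 was at 7.96, 5.79 and 10.3 TPM in wild boar and at 10.7, 23.2 and 19.1 TPM in domestic pig (rescaled -0.54, limma adjusted p = 0.0209). The third E protein gene, TCF3, was at 0.08, and ID4, an inhibitor, at 0.51 (limma adjusted p = 0.0551), neither passing. Of 21 tested cofactors and partners of the layer factors, such as SOX5, TLE4, AUTS2 and chromatin remodelling subunits, 1 passed, HDAC2, a histone deacetylase, lower by -0.52 (limma adjusted p = 0.014). On deposited TPM 0 genes of the upper-layer, layer 4, deep-layer, projection neuron, dimer partner or cofactor lists passed limma's test; of their 85 tested genes 15 (17.6%) had an unadjusted p under 0.05 there, beside 17.8% of all tested genes. After rescaling 33 of the 85 (38.8%) had one, beside 36.8% of all.

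Some genes listed as markers of regions outside the cortex were lower in wild boar. Whether their RNA came from such regions was not tested. Of 4 tested thalamic and hypothalamic markers, 3 passed as lower after rescaling, beside 10.7% of all tested genes. They were NTS (neurotensin), SLC17A6 (a vesicular glutamate transporter) and RORA, a relative of RORB, by -2.34, -1.16 and -0.54. NTS, at 0.468 TPM or less in wild boar, met the filter only through domestic pig. Of the list's 12 genes, 7 were under 1 TPM in every library. The list's 12 genes summed to 14.8 to 18.2 rescaled TPM in wild boar and to 29.1 to 36.2 in domestic pig. RORA alone made up a large part of that sum. On deposited TPM it held 9.05, 4.53 and 11.9 of 16.0, 8.51 and 19.1 TPM in wild boar. In domestic pig it held 11.4, 23.0 and 18.7 of 25.5, 49.5 and 49.6 TPM. GBX2 of that list was at most 0.0723 TPM. LHX9 was at 0.0264, 0.0292 and 0.0542 TPM in wild boar and at 0.144, 0.225 and 0.160 TPM in domestic pig, without overlap. IRX1 lay the other way, at 0.0831 to 0.0880 TPM in wild boar and 0.0202 to 0.0484 TPM in domestic pig. TCF7L2 was at 0.349 to 1.74 TPM and PRKCD at 1.22 to 3.08 TPM, each with overlap, and PRKCD did not pass. RORB lay in the same direction as this list, and the part of non-cortical tissue in its level was not tested. Of 3 tested cerebellar markers 0 passed limma's test after rescaling and 1 had an unadjusted p under 0.05. These 3, ZIC1, CBLN1 and CALB2, were above 1 TPM in every library. Of the cerebellar list's 11 genes, 7 were under 1 TPM in every library. EN2 and BARHL1, a pair of defining genes, were at most 0.0345 TPM, but they were among the lowest of the list. GABRA6 was at 0.0642 to 0.379 TPM, and ZIC2 reached 1.25 TPM in domestic pig 2. The hippocampal list held 1 passing gene of 7 tested, LEF1, lower by -0.55.

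Of the other cells of brain tissue, the GABAergic list had 0 of 9 tested genes passing in limma after rescaling, 2 of them at an unadjusted p under 0.05, and a median of 0.02. In the astrocyte list 1 of 8 passed as higher, in the oligodendrocyte list 3 of 9 as lower, in the precursor list 2 of 6 as higher and in the microglial list 1 of 9 as higher, beside 8.88% higher and 10.7% lower over all tested genes. All 4 tested red blood cell genes passed as higher, but AHSP and HBM reached 1 TPM only in wild boar. Both thus met the filter only through the group where they were higher. That list summed to 448 to 1319 rescaled TPM in wild boar and to 85.8 to 227 in domestic pig. The part of other cell types in the levels of the 8 factors was not tested.

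The genes whose pattern over the 6 libraries was most like that of a factor were found by the root mean square difference of centred log2 rescaled levels. Nearest to RORB were MEIS2 and ING2, each at 0.021, against a range of 0.55 for RORB itself. Nearest to CUX1 was ATXN2L (0.017), and nearest to CUX2 were MID2 and USP42 (0.036 each). Nearest to FEZF2 were CUL4A (0.022) and EPHX2 (0.031), to BCL11B KIF1A and TMTC1 (0.061 each), and to TBR1 LARP1 (0.038). Nearest to NEUROD2 were NCLN (0.036) and USP11 (0.044). NEUROD6 had the neighbours of largest difference, SAT1 (0.095) and ABRACL (0.098), but also the widest range of the factors, 0.99. CUX2 had the narrowest, 0.31. The difference is not scaled to a gene's range, so it does not rank the factors by likeness. These likenesses describe 6 libraries, which share their scaling.

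A second readout of the same loci came from circular RNAs (circRNAs), closed loops made by back-splicing of exons. By position, 10 of 11375 deposited circRNAs lay inside a factor's gene, 6 in CUX1, 3 in CUX2 and 1 in RORB. FEZF2, BCL11B, TBR1, NEUROD2 and NEUROD6 held 0 in the deposited table. The 3 host genes had 4 to 107 recovered back-splice reads per circRNA over the 6 libraries, the smallest whole numbers that fit the deposited values.

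The most read was the CUX1 circRNA ssc_circ_7130 (chromosome 3, 9392909 to 9540038, plus strand, as the file gives it). It had 16, 17 and 5 reads in wild boar, against 17, 14 and 38 in domestic pig. Its levels were 0.618, 0.407 and 0.237 TPM, against 0.512, 0.629 and 1.39 TPM. The groups overlapped (log2 difference -0.88, SE 0.47, limma adjusted p = 0.409). Of the 6 CUX1 circRNAs, 4 end at the same base, 9540038, and 2 start at the same base, 9392909. The next by level, ssc_circ_7133 (chromosome 3, 9529512 to 9540038), had 1, 4 and 3 reads in wild boar, against 11, 4 and 5 in domestic pig. Its TPM did not overlap, and it did not pass (-1.14, limma adjusted p = 0.353). ssc_circ_10079, from 9392909 to 9509927, had 2, 4 and 1 reads in wild boar, against 0, 2 and 0 in domestic pig (1.43, limma adjusted p = 0.389).

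The main CUX2 circRNA, ssc_circ_5416 (chromosome 14, 32475841 to 32479539, plus strand), had 5, 5 and 3 reads in wild boar, against 13, 6 and 9 in domestic pig. It was at 0.782, 0.485 and 0.576 TPM in wild boar and at 1.59, 1.09 and 1.33 TPM in domestic pig, without overlap. The log2 difference was -1.07 (SE 0.37, unadjusted p = 0.0097, limma adjusted p = 0.192). The remaining CUX2 circRNAs, ssc_circ_5418 and ssc_circ_5417, had 9 and 4 reads in all, and ssc_circ_5417 had reads only in domestic pig 1 and 2. The RORB circRNA, ssc_circ_1728 (chromosome 1, 227737217 to 227746906), had 1 read in wild boar 2 and 3 in domestic pig 1, although RORB was the most abundant factor by gene level.

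Of the 10 circRNAs 7 were tested and 0 passed, where 0.237% of 9709 circRNAs passed (0.206% as lower in wild boar). An unadjusted limma p under 0.05 was found for 1 of the 7, against 1403 of all 9709. Of the 7, 2 did not overlap, both lower in wild boar, beside 20.6% of all tested circRNAs (18.2% as lower). Summed over a gene, CUX2 circRNAs were at 0.836, 0.485 and 0.576 TPM in wild boar and 1.87, 1.65 and 1.33 TPM in domestic pig. CUX1 circRNAs were at 1.09, 1.21 and 0.831 TPM in wild boar and 1.41, 1.34 and 2.29 TPM in domestic pig. Neither sum overlapped, and the circRNA TPM of whole libraries was also lower in wild boar, at 1994 to 2121 against 2879 to 3367. Set against the gene's TPM, CUX1 circRNAs were at 15.7%, 22.9% and 8.95% in wild boar and at 30.3%, 10.7% and 27.4% in domestic pig, with overlap. CUX2 circRNAs were at 14.3%, 14.2% and 8.37% in wild boar and at 36.5%, 15.3% and 16.4% in domestic pig, where the gap between wild boar 1 and domestic pig 2 was small. The 2 tables were scaled separately, so these percentages compare libraries and not molecules, and with 3 to 17 reads per library for CUX2 they rest on few reads.

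**Figure D4:**
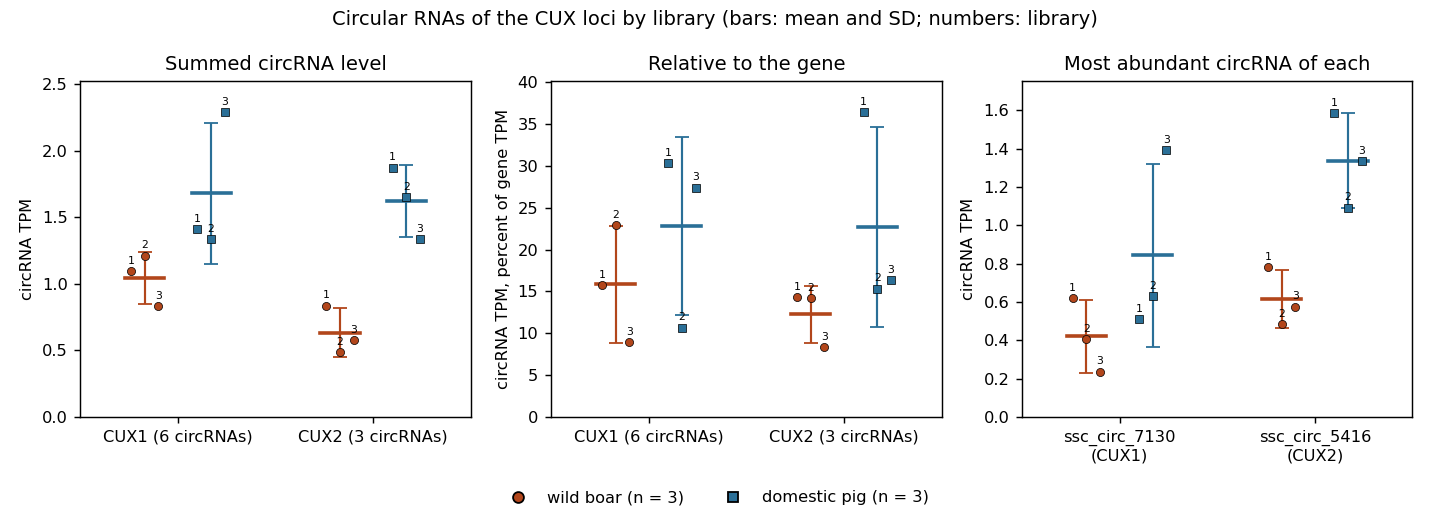
Circular RNAs of CUX1 and CUX2 by library, as summed TPM (left), as percent of the gene's TPM (middle) and for the most read circRNA of each gene (right); the thick line is the group mean and the bar its SD. Summed levels are lower in wild boar for both genes, while the CUX1 percentages overlap.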

How the data were processed

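Per the labels' protocols, total RNA was depleted of ribosomal RNA, fragmented and made into stranded libraries. STAR 2.6.0c and BWA 0.7.17 are listed, without their roles, per the submitters' processing notes. For the genome build, annotation and circRNA caller, the entry is "not given in the sources used here". What the authors deposited was TPM for 21280 protein-coding genes (14821 matched a symbol) and for 11375 circRNAs, with 0 unused sample columns. TPM keeps no depth for genes. The p-values rest on 3 animals per group. In limma each gene's spread was drawn toward a trend over genes of like level. On deposited TPM that trend set the spread, so a gene's own spread between animals hardly entered its p.

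Genes at 1 TPM or more in at least 3 libraries (11752) were tested on log2(TPM + 1), and circRNAs seen in 3 or more libraries on log2(TPM + 0.05), with limma 3.58.1 (R 4.3.3, variance trend, two-sided, Benjamini-Hochberg, threshold 0.05). Fold changes on these scales understate those of low values. Back-splice reads were recovered as the smallest whole numbers within a relative tolerance of 1e-05 (Python 3.11.15) for all 11375 circRNAs, a lower bound, with 33360 to 72167 reads per library. Positions count from 1. Hosts were assigned by the Sscrofa11.1 RefSeq table, where 99.31% of circRNAs fell within genes, and 47.24% did once moved by 1000000 bases.

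The factors and gene lists were chosen with earlier results of these data known. Named list genes were the 4 of lowest p after rescaling. LAMP5, KCNH5, EMX1, NEUROD1, TCF3, SLC17A7, CAMK2A, MAP2, SYT1, STMN2, PPP1R1B, DRD1, RGS5, FLT1 and TEK were added after their values were seen. So were the untested markers named for regions outside the cortex. The 2 nearest genes per factor and the 2 most abundant circRNAs per locus were named, with others of the loci added; some genes under these rules are not reported here. The tests were checked on simulated data. Alternatives were other scalings, pseudocount, filters, no variance trend, a replicate block and leaving out each library.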

Additional observations from a re-analysis of the deposited data

How the results depend on the processing

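Across all alternatives on deposited TPM that kept its scaling, 0 of the 8 factors passed; after median-ratio rescaling 1 passed and the count over all genes was 2295, against 188 on deposited TPM. CUX1 and FEZF2 turned from below to above 0 under rescaling (0.30 and 0.14) and with the protein-coding sum set to 1000000 (0.31 and 0.16), where 1139 genes passed. Over all genes 6 passed without a filter, 33 with 1 TPM or more in all libraries and 285 without the variance trend; leaving out 1 library gave 58 to 665 (58 and 113 without wild boar 1 and 2; 665, 64 and 68 without domestic pig 1, 2 and 3). With 1 library omitted, the deposited difference was -0.31 to 0.37 for TBR1, -0.49 to 0.14 for CUX1, -0.16 to 0.31 for BCL11B and -0.16 to 0.31 for NEUROD2, with both signs; RORB, NEUROD6, CUX2 and FEZF2 stayed below 0. After rescaling, leaving out 1 library gave 0 to 5 passing factors (0 without any 1 wild boar or domestic pig 1, 5 without domestic pig 2) and 775 to 2208 genes, and CUX2 ran from -0.10 to 0.046 (the latter without domestic pig 2). With scaling factors from genes at 1 TPM or more in all libraries, added after the data were seen, 3 factors passed. The upper to deep balance ran from -0.43 to -0.31 and circRNAs of these loci passed 0 times when 1 library was left out. The cause of these changes was not tested.

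The labels do not state that shared replicate numbers pair the animals. On deposited TPM the deviations of same-numbered libraries correlated at 0.10, -0.04 and -0.01 across genes, and wild boar 3 correlated best with domestic pig 2 (0.19). After rescaling the same-numbered libraries correlated at 0.11, -0.07 and -0.16. With 3 libraries per group such correlations cannot settle a pairing. With the replicate block 70 genes passed on deposited and 1250 on rescaled TPM, with 0 and 1 of the factors, NEUROD2 at an adjusted p of 0.0445 by limma.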
